A study of Mus musculus with 79 samples.

Results

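Interferon-stimulated genes were examined in the medial prefrontal cortex (mPFC) and the ventral hippocampus (vHipp) of stressed and control mice given ketamine or saline. The set was given as a list of names, with no threshold on measured values but with earlier results of these data known: Ifit1, Ifit3, Irf7, Isg15, Bst2, Ifi27, Usp18, Rtp4 and B2m, 9 of the 55471 genes in the count table. Each was found by its Ensembl identifier, and all 9 had enough counts to be tested in both regions. The question asked of them was whether the differences between mice in class I genes of the major histocompatibility complex (MHC) come together with an interferon response.

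The animals were 40 male wild-type CD-1 (ICR) mice, an outbred stock, aged 9 to 10 weeks and none of them siblings. Mice of the CSDS groups went through 21 days of chronic social defeat, and CTRL mice did not. All mice lived in groups, and each then received a single intraperitoneal injection of saline or of (R,S)-ketamine (10 mg/kg), so that the 4 groups were CTRL saline, CTRL ketamine, CSDS saline and CSDS ketamine. Punches of 1 mm were taken from each region 7 days after the injection. There were 10 mice per group and region, apart from 9 mPFC libraries in CSDS ketamine, because the mPFC of mouse 5 was not analysed here. Mice 1 to 20 were CSDS mice and mice 21 to 40 were CTRL mice, and the mouse number links both regions of an animal. Social rank and housing enclosure were not used here, and each group may mix ranks. Stress was given to whole housing groups of 4 mice, so mice housed together are not independent for it. The labels do not give the housing groups, and runs of 4 consecutive mouse numbers stand in for them in some fits below.

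On GRCm38, the annotation placed Ifit1 (ENSMUSG00000034459) at chr19:34640871-34650009 on the plus strand, Ifit3 (ENSMUSG00000074896) at chr19:34583531-34588731 on the plus strand, Irf7 (ENSMUSG00000025498) at chr7:141262706-141266481 on the minus strand. It placed Isg15 (ENSMUSG00000035692) at chr4:156199455-156200796 on the minus strand, Bst2 (ENSMUSG00000046718) at chr8:71534255-71537456 on the minus strand, Ifi27 (ENSMUSG00000064215) at chr12:103434211-103440239 on the plus strand. The remaining 3 genes were Usp18 (ENSMUSG00000030107) at chr6:121245906-121270917 on the plus strand, Rtp4 (ENSMUSG00000033355) at chr16:23520291-23614222 on the plus strand and B2m (ENSMUSG00000060802) at chr2:122147686-122153083 on the plus strand. Values are sums over whole genes, so exons and isoforms were not told apart.

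Interferons are secreted proteins that cells release on meeting a virus or other danger signals. Type I interferons bind the receptor pair Ifnar1 and Ifnar2, and the signal leads to the nucleus, where the interferon-stimulated response element in the promoters of target genes is bound. In the brain, microglia, astrocytes and endothelial cells are known to respond, and class I MHC genes and their light chain B2m belong to the targets, at a higher basal level than most of the others.

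Stretches of promoter are shown for the genes in which the letters of the response element were found. The letters GAAANNGAAA or their reverse complement TTTCNNTTTC, on either strand, were searched in the 250 bases before the start site. The RefSeq promoter table for GRCm38.p6 had a window for 6 of the 9 genes, and none for Ifi27, Usp18 and Rtp4. Of the 6 windows, 5 held the letters, against 2.98% of all 32851 windows and 3.46% of the 27025 genes with a window. Capitals mark the matches, which overlap in Isg15 and Bst2, and 25 bases stand on either side.
Ifit1: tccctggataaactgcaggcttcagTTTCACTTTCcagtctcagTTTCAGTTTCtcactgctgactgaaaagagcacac
Ifit3: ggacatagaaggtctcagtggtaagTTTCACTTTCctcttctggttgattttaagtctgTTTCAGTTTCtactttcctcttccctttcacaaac
Isg15: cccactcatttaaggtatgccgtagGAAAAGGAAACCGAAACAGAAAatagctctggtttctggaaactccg
Bst2: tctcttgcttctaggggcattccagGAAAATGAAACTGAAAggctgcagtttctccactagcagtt
B2m: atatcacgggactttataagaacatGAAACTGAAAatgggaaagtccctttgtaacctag

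All are written 5′ to 3′ on the strand of the gene. The stretch of Ifit1 is chr19:34640760-34640838 on the plus strand, and its 2 matches end at position -76 from the start site. That of Ifit3 is chr19:34583348-34583441 on the plus strand, with 2 matches that begin at position -156. Isg15 had 3 matches in chr4:156200850-156200921 on the minus strand, from position -78 to position -57, the closest to a start site of the 5. Bst2 had 2 matches in chr8:71537562-71537627 on the minus strand, and B2m had 1 in chr2:122147523-122147582 on the plus strand. The window of Irf7 held no match to these letters. A match is a description of the sequence, and whether a factor binds there was not measured.

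Total counts ranged from 11726129 to 41767119 per library (median 19638060), and no pair of the 79 libraries was identical. Levels are given as CPM, counts relative to the library total, scaled within each region by the TMM method. The punches differed as their labels say in the summed level of 4 hippocampal markers, which was at most 304 CPM in the mPFC and at least 414 CPM in the vHipp. In the vHipp, the library of mouse 11 (CSDS ketamine) had the highest summed level of 8 microglia markers, 673 CPM, and of 5 astrocyte markers, 2934 CPM. Its endothelial (358 CPM) and mural cell markers (254 CPM) were also the highest, and its neuronal markers the lowest (4894 CPM). The library of mouse 9 (CSDS saline) had 696 CPM of choroid plexus markers, against at most 29.7 CPM in the CTRL saline group. That of mouse 4 (CSDS saline) stood apart in the genes described here. Where leaving out one of these libraries ended a call at an unadjusted p under 0.05, the value without it stands beside the result.

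B2m, the light chain of class I MHC molecules, was by far the most abundant of the genes, with 47.4 ± 9.46 CPM in the mPFC (SD, n = 39) and 36.5 ± 9.31 CPM in the vHipp (SD, n = 40). Ifi27, whose product sits at mitochondria, followed with 13.1 ± 1.87 CPM and 23.4 ± 4.00 CPM. The other 7 genes lay near 1 CPM, from 1.52 ± 0.324 CPM for Rtp4 to 0.475 ± 0.258 CPM for Usp18 in the mPFC. Their median count per library was between 7.5 for Usp18 in the vHipp and 30 for Rtp4 in the mPFC. Counting alone gives an error of 36.5% at 7.5 counts and of 18.3% at 30, and of 3.35% at the 893 counts of B2m in the mPFC. Small differences in these 7 genes were therefore not detectable at this depth in single libraries.

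Per kilobase of transcript, the order in the mPFC was B2m with 55.2 CPM per kb, Ifi27 with 8.93, Bst2 with 1.47, Isg15 with 0.904, Rtp4 with 0.715, Ifit3 with 0.619, Ifit1 with 0.412, Irf7 with 0.338 and Usp18 with 0.170. The SDs over mice were 11.0 for B2m, 1.28 for Ifi27, 0.552 for Bst2 and 0.424 for Isg15. From Isg15 down to Irf7, each gene differed from the next by less than the SD of the higher one, while Irf7 lay above Usp18 by more than its SD of 0.137. In the vHipp the order was B2m with 42.5, Ifi27 with 15.9, Bst2 with 1.11, Isg15 with 0.739, Rtp4 with 0.529, Ifit3 with 0.498, Ifit1 with 0.339, Irf7 with 0.241 and Usp18 with 0.173 CPM per kb, the same sequence of names. There, from Bst2 downward, each gene differed from the next by less than the SD of the higher one.

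**Figure D1:**
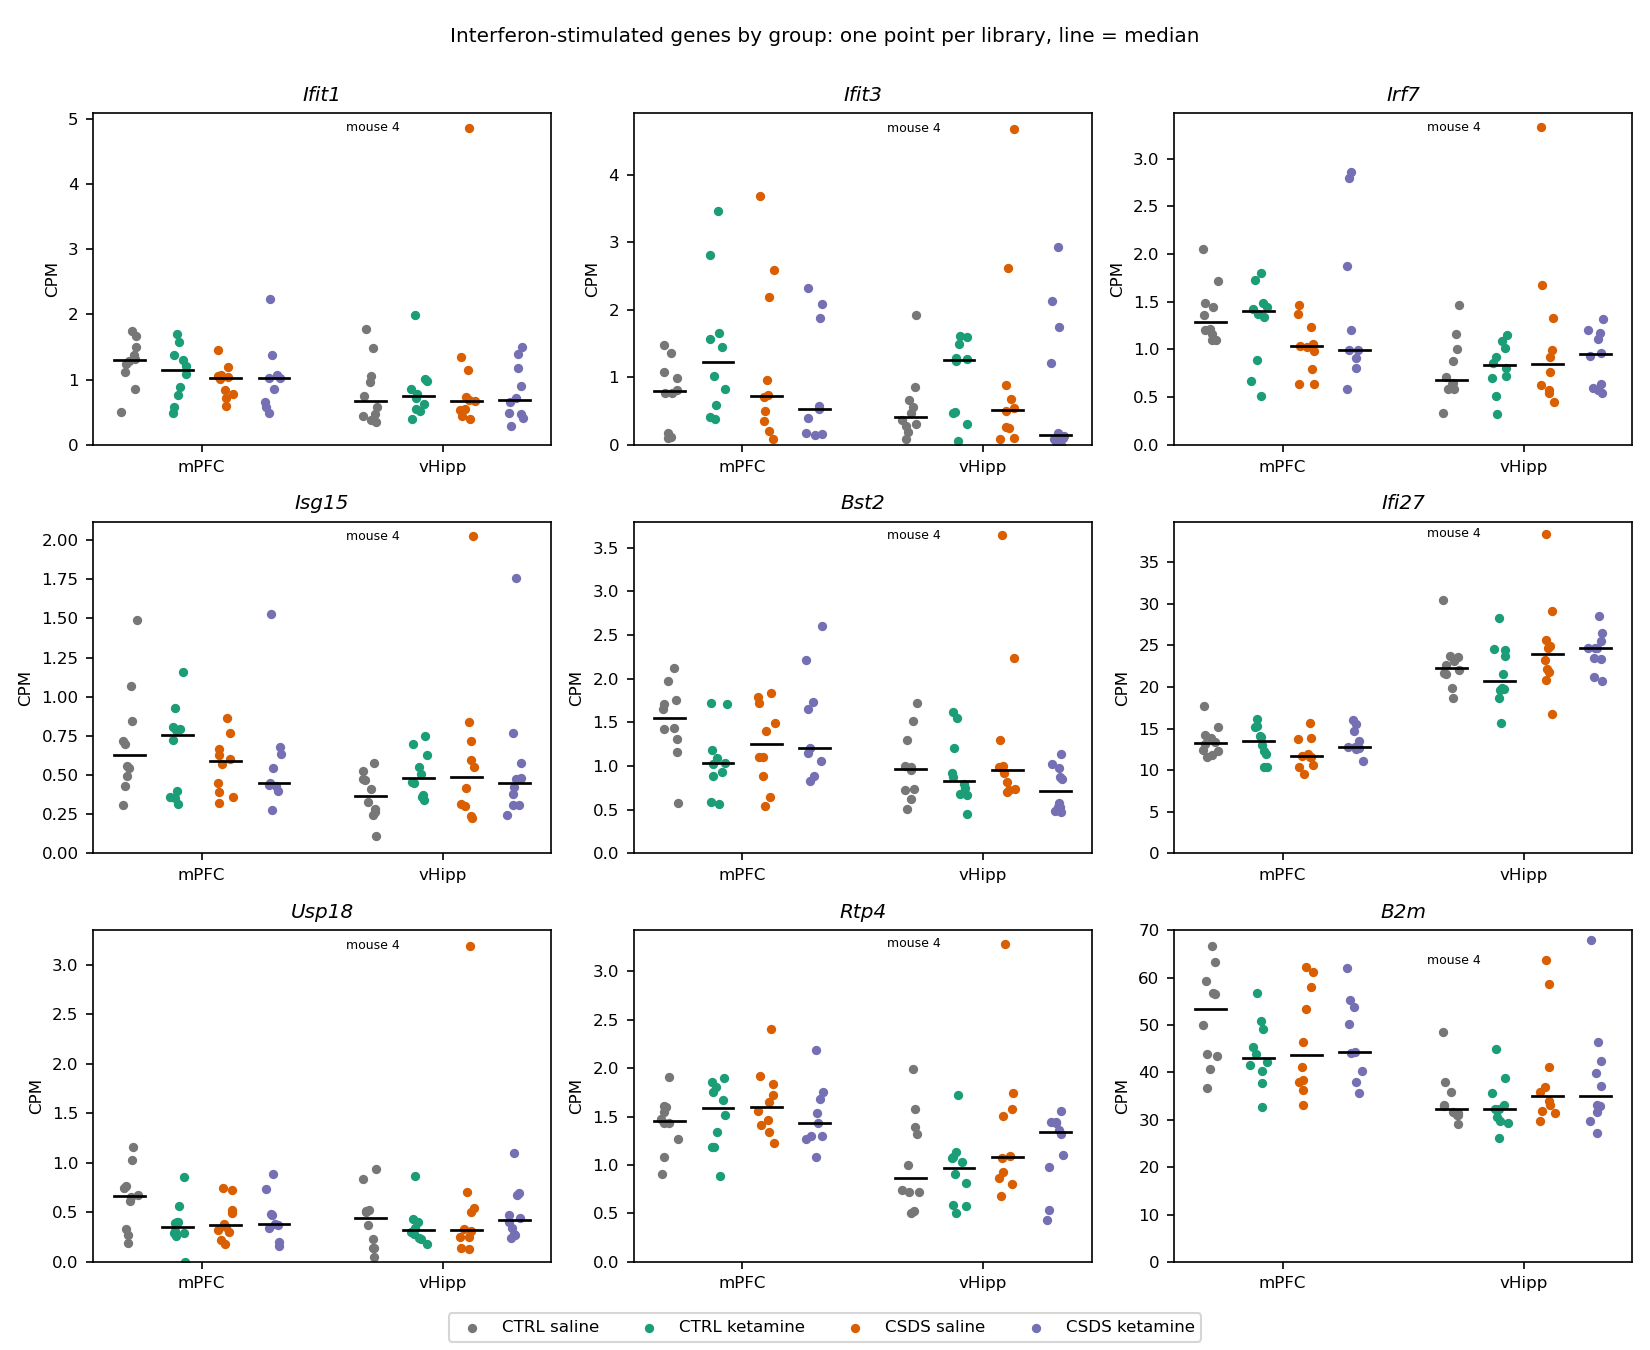
CPM of each gene (y axis, own scale per panel) by region and group, 1 point per library and a line at the group median. The 4 groups overlap for every gene in both regions, Ifi27 is higher in the vHipp, and mouse 4 (CSDS saline) has the highest vHipp value of 8 genes and of its group for B2m.

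Neither stress nor ketamine gave a call for any of these genes within a region. There were 14 comparisons: in each region, stress with saline, stress with ketamine, ketamine in CTRL, ketamine in CSDS, the interaction, and stress and ketamine each over both levels of the other factor. Each was tested by edgeR's quasi-likelihood fit over all genes that passed the filter, 28993 for the mPFC and 28991 for the vHipp, with p-values adjusted by Benjamini-Hochberg, and 0 of 9 passed 0.05 (lowest edgeR adjusted p = 0.443). The background was the same, 0% of all genes called in each of the 14. At an unadjusted p under 0.05 there were 7 tests of these genes in the 14 comparisons, 5.56% of them, against 4.38% of the tests of all genes. They fell into 6 comparisons. In the other 8 no test of the 9 genes reached it, where 2.94%, 5.8%, 4.32%, 3.52% and 3.07% of all genes did in the mPFC (stress with saline, stress with ketamine, ketamine in CSDS, stress and ketamine over both) and 5.42%, 2.88% and 2.84% in the vHipp (stress with ketamine, ketamine in CTRL, interaction). These unadjusted counts depended on the fit in the mPFC. With only the groups compared in the edgeR fit, 2 of 9 genes reached it for stress with saline (lowest p = 0.0161) and 4 of 9 for ketamine in CTRL, against 0 and 1 with all groups. Runs of 4 mouse numbers as a fixed block gave 3 of 9 for ketamine in CTRL, and DESeq2 gave 2 of 9 there and 1 of 9 for ketamine in CSDS. The share of all genes was not computed for these other fits, so the counts have no background beside them. DESeq2 in all comparisons and limma-voom in those of stress also called 0 of the 9 genes, although DESeq2 gave none of them an adjusted p in the vHipp for stress over both treatments.

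The 3 regulators of the response come first. Irf7, the transcription factor that amplifies type I interferon production, had in the mPFC 1.10, 1.29 and 2.06 CPM in CTRL saline (lowest, median, highest) and 0.638, 1.03 and 1.46 CPM in CSDS saline. With ketamine, the values were 0.508, 1.40 and 1.80 CPM in CTRL and 0.583, 0.996 and 2.86 CPM in CSDS. The groups overlapped, and log2 fold changes (LFC, CSDS against CTRL) were -0.43 ± 0.23 (SE) with saline and 0.17 ± 0.24 with ketamine. In the vHipp the medians were 0.682 CPM in CTRL saline, 0.843 in CSDS saline, 0.833 in CTRL ketamine and 0.948 in CSDS ketamine. The LFC with saline there was 0.51 ± 0.28, with mouse 4 at 3.33 CPM and the next CSDS saline mouse at 1.68.

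Isg15, a ubiquitin-like protein that is attached to other proteins, had in the vHipp 0.112, 0.368 and 0.576 CPM in CTRL saline and 0.227, 0.486 and 2.02 CPM in CSDS saline. It was the only one of the 9 with an unadjusted p under 0.05 for stress with saline in the vHipp (LFC 0.75 ± 0.34, p = 0.0297, edgeR adjusted p = 0.866), where 5.57% of all genes had one. The groups overlapped, and the value of 2.02 CPM was that of mouse 4. Without that library the LFC was 0.33 ± 0.31 (p = 0.298). With runs of 4 consecutive mouse numbers as a random effect in limma-voom, the lowest unadjusted p of the 9 genes was 0.114. With ketamine the vHipp values were 0.343, 0.484 and 0.751 CPM in CTRL and 0.244, 0.453 and 1.76 CPM in CSDS, and the LFC was 0.10 ± 0.33.

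Usp18, the protease that removes Isg15 and damps signalling at the type I receptor, had in the mPFC 0.191, 0.664 and 1.16 CPM in CTRL saline and 0, 0.351 and 0.857 CPM in CTRL ketamine. Ketamine against saline in CTRL mice gave an LFC of -0.72 ± 0.33 (p = 0.0332, edgeR adjusted p = 0.997), at an unadjusted background of 3.64% of genes. Without mouse 31, a CTRL ketamine library, it was -0.59 ± 0.30 (edgeR p = 0.0575). That library was the lowest of its group for 6 of the 9 genes, a count with no share of all genes beside it. From the top, it ranked 36 of 39 for astrocyte, 38 for meningeal fibroblast, 4 for neuronal and 3 for choroid plexus markers. Their part in the result was not tested. The groups overlapped, and 1 CTRL ketamine library had no count, where the median of the region was 8 counts. In CSDS mice the same contrast was 0.064 ± 0.35, and the interaction of 0.78 ± 0.48 had p = 0.110. In the vHipp, the medians of the 4 groups lay between 0.325 and 0.440 CPM.

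The antiviral effectors were next. Ifit1, which binds viral RNA without the cap modification of the host, had mPFC medians of 1.31, 1.14, 1.02 and 1.02 CPM in CTRL saline, CTRL ketamine, CSDS saline and CSDS ketamine. Its vHipp medians were 0.666, 0.748, 0.676 and 0.688 CPM, so that the group medians were close to each other. The vHipp LFC for stress with saline was 0.50 ± 0.38 and fell to -0.18 ± 0.32 without mouse 4.

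Ifit3, its partner, had the widest spread of the set relative to its level. In the mPFC it ranged from 0.103 to 1.48 CPM in CTRL saline (median 0.794), from 0.381 to 3.45 in CTRL ketamine (median 1.23), from 0.0891 to 3.68 in CSDS saline (median 0.722) and from 0.150 to 2.32 in CSDS ketamine (median 0.528). The ratio of the highest to the lowest mPFC library was 41.2, against 2.04 for B2m and 1.85 for Ifi27. The mPFC interaction was -1.31 ± 0.74 (p = 0.0851), and that in the vHipp -1.20 ± 0.89 (p = 0.182). Neither passed even the unadjusted threshold. In the vHipp, CSDS saline mouse 4 had 4.68 CPM of Ifit3 and the next mouse of its group 2.62.

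Bst2 (tetherin), which holds budding virus at the cell surface, had in the vHipp 0.512, 0.971 and 1.73 CPM in CTRL saline, 0.452, 0.834 and 1.62 in CTRL ketamine, 0.704, 0.960 and 3.64 in CSDS saline, and 0.478, 0.716 and 1.14 in CSDS ketamine. The lowest unadjusted p of the 9 genes in the 14 comparisons was that of ketamine against saline in CSDS mice (LFC -0.83 ± 0.28, p = 0.00516, edgeR adjusted p = 1.000), at a background of 2.9%. The groups overlapped, and without mouse 4 the LFC was -0.50 ± 0.25 (p = 0.0557). Ketamine over both stress groups gave -0.46 ± 0.20 (p = 0.0255, background 3.39%), and -0.29 ± 0.17 without mouse 4 (p = 0.102). With all libraries, ketamine over both stress groups and ketamine in CTRL mice had a negative LFC in both regions. In the mPFC the sign differed for ketamine in CSDS mice, at 0.23 ± 0.24, and for the interaction, at 0.69 ± 0.33 (edgeR p = 0.0443, background 5.31%). The interaction was 0.54 ± 0.33 without mouse 3 (p = 0.103) and 0.62 ± 0.33 without mouse 31 (p = 0.0666).

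Rtp4, a chaperone of receptors that interferon also induces, had medians between 1.43 and 1.60 CPM in the 4 mPFC groups and of 0.871 CPM in CTRL saline, 0.969 in CTRL ketamine, 1.08 in CSDS saline and 1.34 in CSDS ketamine in the vHipp. Its LFC for stress over both treatments was 0.11 ± 0.10 in the mPFC and 0.34 ± 0.19 in the vHipp, both within the spread between mice.

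Of the abundant pair, Ifi27 had medians in the vHipp of 22.3 CPM in CTRL saline, 20.8 in CTRL ketamine, 24.0 in CSDS saline and 24.6 in CSDS ketamine. B2m had 32.3, 32.3, 34.9 and 35.1 CPM in the same order, with highest values of 48.5, 45.0, 63.7 and 68.0 CPM. Both had an unadjusted p under 0.05 for stress over both treatments in the vHipp, with an LFC of 0.15 ± 0.071 for Ifi27 (p = 0.0455) and 0.22 ± 0.095 for B2m (p = 0.0284), where 9.71% of all genes had one. The groups overlapped for both. The edgeR adjusted p was 0.504 for Ifi27 and 0.443 for B2m. Without mouse 4 the LFC was 0.10 ± 0.061 for Ifi27 (p = 0.0993) and 0.17 ± 0.092 for B2m (p = 0.0696). Without mouse 9 the LFC of Ifi27 was 0.14 ± 0.071 (p = 0.0597) and that of B2m 0.18 ± 0.095 (p = 0.0601), and without mouse 11 that of B2m was 0.16 ± 0.086 (p = 0.0753). With runs of 4 consecutive mouse numbers as a random effect in limma-voom, none of the 9 genes had an unadjusted p under 0.05 in this comparison (lowest p = 0.0743). In the mPFC the LFC of B2m was -0.025 ± 0.085 with all libraries.

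**Figure D2:**
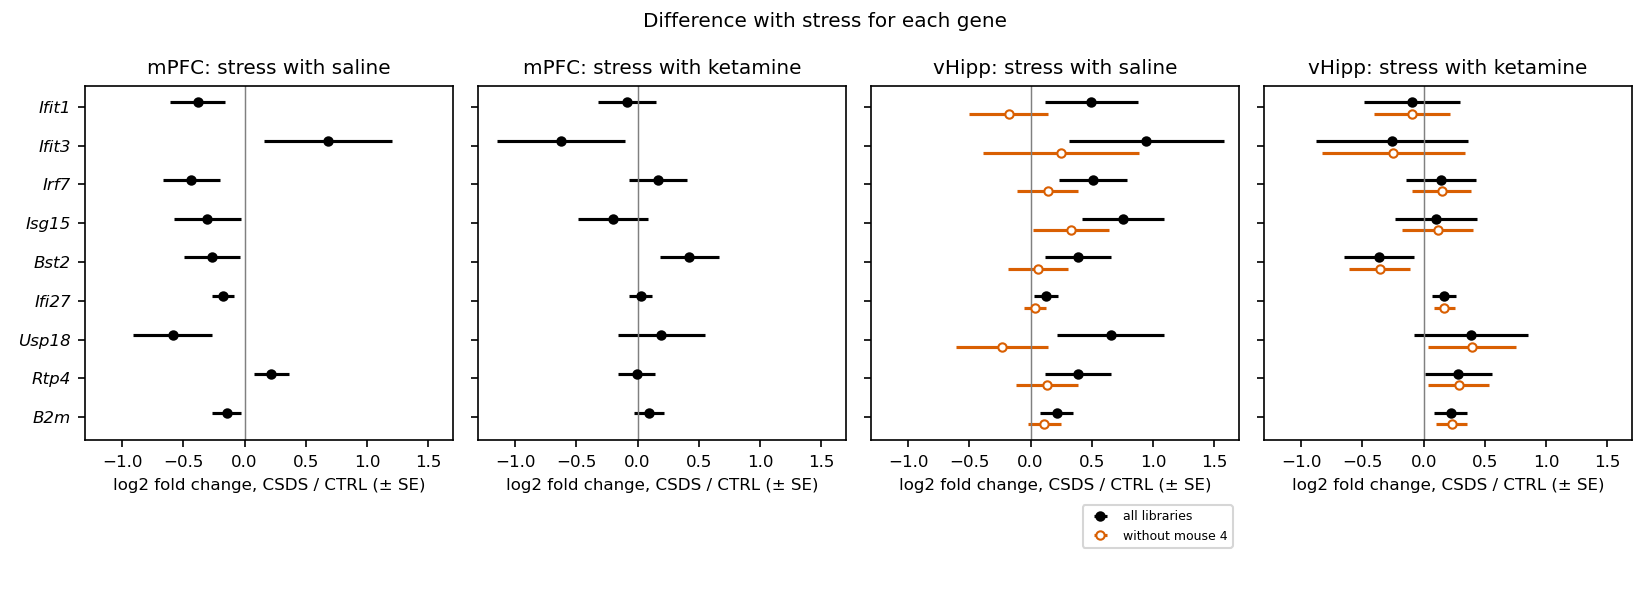
LFC of CSDS against CTRL for each gene (x axis, log2 fold change with bars of 1 SE), by region and treatment. Filled points use all libraries, and open points in the vHipp leave out mouse 4, without which the median LFC with saline was 0.11 in place of 0.50.

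All 9 estimates had one sign in 3 of the vHipp comparisons. With saline in the vHipp, 9 of 9 had an LFC above 0 (median 0.50), against 47.9% of all genes (median -0.0077). Over both treatments 9 of 9 were above 0 (median 0.33), against 49.2% of all genes, and for ketamine in CSDS mice 0 of 9 (median -0.33), against 51.2%. Each of these contrasts contains the CSDS saline group, so that the counts share libraries. Without mouse 4 they were 7 of 9 (median 0.11), 7 of 9 (median 0.10) and 8 of 9 (median 0.073). For stress over both treatments, 9 of 9 were above 0 without mouse 11 (median 0.16) and 8 of 9 without mouse 9 (median 0.29). For ketamine in CSDS mice, 0 of 9 were above 0 without mouse 11 (median -0.53) and 1 of 9 without mouse 9 (median -0.26). With runs of 4 mouse numbers as a fixed block it was 0 of 9 (median -0.14). The shares of all genes are from the fit with all libraries. Limma-voom with the run of 4 consecutive mouse numbers as a random effect gave 9 of 9 with saline and 7 of 9 over both treatments. In the mPFC, stress with saline gave 2 of 9 above 0 (Ifit3 and Rtp4, median -0.27), against 49% of all genes, and stress with ketamine 5 of 9 (median 0.025), against 50.5%. In the vHipp, stress with ketamine gave 6 of 9 (median 0.14), against 51.4%. The difference of the stress LFC, mPFC minus vHipp, was -0.67 ± 0.31 for Isg15 (p = 0.0353) and -0.21 ± 0.096 for Ifi27 (p = 0.0319), where 6.86% of all genes had an unadjusted p under 0.05. Without the vHipp library of mouse 4 these differences were -0.45 ± 0.29 (p = 0.123) and -0.16 ± 0.089 (p = 0.0704), and that of Isg15 was -0.51 ± 0.30 without the vHipp of mouse 11 (p = 0.0902). By edgeR, 0 of 9 passed adjustment, and 0% of all genes.

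The vHipp library of mouse 4 had the highest value in its group for 9 of 9 genes, while it held the highest value for 11.8% of all 15531 genes with a level to compare. Ifit1 was at 4.86 CPM, against a median of 0.671 and a maximum of 1.34 CPM in the other 9 mice of the group. Usp18 was at 3.19 CPM, against 0.314 and 0.708, a ratio to the median of 10.2. Ifit3 was at 4.68 CPM against a maximum of 2.62, Irf7 at 3.33 against 1.68, Isg15 at 2.02 against 0.838, Bst2 at 3.64 against 2.23 and Rtp4 at 3.28 against 1.75. The excess was thus present in regulators and effectors alike. It was smaller for the abundant genes, with Ifi27 at 38.4 CPM against a maximum of 29.1 and B2m at 63.7 against 58.7.

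Of 44 other effector genes on a wider interferon list, the same library had the highest value in its group for 30, among them Mx1 (0.674 CPM, other mice at most 0.252), Oasl2 (6.47 against 3.74), Lgals3bp (25.6 against 12.2) and Trim30a (4.45 against 2.04). These examples were chosen after their values were seen. Ifit2 (19.5 CPM, median of the others 18.0), Cmpk2 and Iigp1 were not raised. Of 20 class I genes it had the highest value for 11, with H2-D1 at 67.6 CPM (other mice at most 49.1) and H2-K1 at 15.7 (at most 14.5), but H2-T22 at 1.21 CPM was inside the range of the others, which reached 8.00. The summed level of 5 red blood cell markers in this library was the highest of the vHipp, 273 CPM against a CSDS saline median of 64.9, that of microglia markers was the fourth highest, 386 CPM, and that of oligodendrocyte markers the third, 2774 CPM. Their part in the result was not tested. In the mPFC of mouse 4, red blood cell markers were at 317 CPM, also high, while Ifit1 was at 1.01 CPM (rank 25 of 39 from the top), Irf7 at 1.04 (rank 26), Usp18 at 0.327 (rank 27) and Bst2 at 1.10 (rank 25). Ifit3 at 2.59 CPM (rank 4) and Isg15 at 0.862 CPM (rank 6) were nearer the top there.

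Some other libraries held the highest value of several of the 9 genes. In the mPFC, mouse 3 (CSDS ketamine) had the highest value in its group for 6 of the 9 genes, 21 of 44 effectors and 14 of 20 class I genes, and for 11.0% of all genes, with Isg15 at 1.53 CPM against at most 0.681. Its endothelial markers were the highest of the mPFC, 271 CPM, and its microglia and astrocyte markers the fourth highest, 380 and 1496 CPM, as were its meningeal fibroblast markers. Their part in the result was not tested. In the vHipp, mouse 24 (CTRL saline) had the highest value for 7 of the 9, but for 7 of 44 effectors and 3 of 20 class I genes, beside 16.3% of all genes. Its red blood cell markers were the second highest of the vHipp, after those of mouse 4, and their part in the result was not tested. Mouse 32 (CTRL ketamine) had it for 4 of the 9, 8 of 43 effectors and 2 of 20 class I genes, beside 9.87% of all genes. Mouse 11 had it for 4 of the 9, 26 of 43 effectors and 8 of 20 class I genes, beside 21.1% of all genes. Some other libraries were highest for many class I genes. The vHipp of mouse 39 (CTRL saline) was so for 11 of 20 class I genes, 15 of 44 effectors and 1 of the 9, beside 4.90% of all genes, and the mPFC of mouse 2 (CSDS saline) for 11 of 20, 16 of 44 and 3 of the 9, beside 15.9%. The vHipp library of mouse 11 had the highest vHipp level of B2m, 68.0 CPM. Its microglia, astrocyte, endothelial and mural cell markers were high and its neuronal markers low, and their part in the result was not tested.

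Leaving out a library also brought tests of the 9 genes under an unadjusted p of 0.05. The libraries were chosen after the data were seen, and all comparisons were searched. The share of all genes under it in these fits was not set beside them, so they are listed as a description. Without the mPFC of mouse 3, stress over both treatments gave -0.34 ± 0.15 for Ifit1 (p = 0.0338) and -0.39 ± 0.18 for Isg15 (p = 0.0386), ketamine in CTRL gave -0.46 ± 0.22 for Bst2 (p = 0.0465), and the region difference of stress was -0.54 ± 0.26 for Irf7 (p = 0.0429). Without the mPFC of mouse 31, ketamine in CSDS gave 0.48 ± 0.23 for Irf7 (p = 0.0444). Without the vHipp of mouse 24, the LFC was 0.64 ± 0.29 for Irf7 for stress with saline (p = 0.0310), -0.86 ± 0.40 for Bst2 in the interaction (p = 0.0354) and 0.41 ± 0.19 for Rtp4 for stress over both treatments (p = 0.0372). Without mouse 11 the vHipp interaction of Isg15 was -0.97 ± 0.44 (p = 0.0311), and without mouse 32 the LFC of Rtp4 for stress over both treatments was 0.41 ± 0.19 (p = 0.0406). None of these passed adjustment by edgeR, with adjusted p of 0.429 and above.

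Across mice, the level of B2m correlated with the summed markers of several non-neuronal cell types, after subtraction of group means from log2(CPM + 0.1). Pearson's r was 0.81 with microglia markers (rho 0.80) and 0.75 with astrocyte markers (rho 0.73) in the vHipp (n = 40), and 0.66 (rho 0.75) and 0.82 (rho 0.82) in the mPFC (n = 39). Over the 11 non-neuronal lists, r with B2m began at 0.094 in the vHipp and 0.23 in the mPFC, both with T cell markers, and it was 0.40 and 0.32 with oligodendrocyte, 0.72 and 0.38 with endothelial, 0.21 and 0.54 with blood myeloid and -0.45 and -0.64 with neuronal markers. For Isg15, r was 0.74 in the vHipp and 0.46 in the mPFC with microglia markers, and 0.72 and 0.37 with endothelial markers. For Ifi27 it was 0.20 and 0.052 with microglia and 0.026 and -0.068 with astrocyte markers, and for Rtp4 in the mPFC -0.086 and 0.032 with the same lists. These are descriptions over libraries that share the same scaling, and in such bulk tissue more cells of a type and more RNA per cell cannot be told apart. Group by group, the medians of microglia markers in the vHipp were 258 CPM in CTRL saline, 274 in CTRL ketamine, 294 in CSDS saline and 278 in CSDS ketamine. Of the T cell and blood myeloid lists, Cd3e, Cd8a, S100a8 and S100a9 had a median of 0 over all vHipp libraries. The summed levels of these lists, which also hold Cd4, Ccr2 and Ly6c2, reached 0.723 CPM (T cells, CSDS ketamine) and 2.35 CPM (blood myeloid, CSDS saline) there.

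The wider list of the pathway held 75 further genes, of which 69 were tested in the mPFC and 68 in the vHipp. The ligands themselves were almost absent: Ifnb1 had 1 count in all 39 mPFC libraries and 0 in 40 vHipp libraries, Ifng had 4 and 2, and none of the 6 ligand genes was tested. Of the receptors, signalling proteins, sensors and effectors, 0 passed adjustment by edgeR in any of the 14 comparisons. At an unadjusted p under 0.05, stress with saline gave 0 of 69 in the mPFC, and in the vHipp 5 of 68 higher and 0 lower, where 3.07% of all genes were higher. The 5 were Irgm1 and Trim30a, interferon-induced defence factors, Irf8, a transcription factor of microglia, the chemokine Cxcl10 and the RNA-dependent kinase Eif2ak2, with LFC from 0.23 ± 0.098 (Irgm1) to 1.29 ± 0.59 (Cxcl10). Without mouse 4 there were 0. In the mPFC, 6 of the 44 effectors had an LFC above 0 for stress with saline (median -0.10), against 49% of all genes. In the vHipp it was 37 of 43 (median 0.23), or 32 of 43 without mouse 4 (median 0.11), against 47.9% of all genes with all libraries.

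For stress over both treatments in the vHipp, 10 of 68 were higher and 1 lower, where 5.31% of all genes were higher and 4.4% lower. The lowest p values were those of Irgm1 (LFC 0.22 ± 0.069, p = 0.00244), Irf8 (0.26 ± 0.091), Mx2 (0.47 ± 0.18), Eif2ak2 (0.19 ± 0.078) and Ifngr1 (0.17 ± 0.069), and the edgeR adjusted p of Irgm1 was 0.340. Without mouse 4 there were 4 higher, without mouse 11 there were 5, and in limma-voom with runs as a random effect 3. The 5.31% belongs to the fit with all libraries, so these 3 counts have no share of all genes beside them and show no excess by themselves. The median LFC of the 43 effectors tested was 0.20, and 0.14 without mouse 4, against -0.0025 for all genes. In the mPFC the lowest p was that of Cd274, the ligand of an inhibitory T cell receptor, for stress with ketamine (-0.48 ± 0.12, p = 0.000357, edgeR adjusted p = 0.830), and the median LFC of effectors there was -0.033.

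The class I gene H2-T22 forms separate levels, with 8 mice (2, 3, 6, 11, 12, 15, 20 and 22) at the upper one in both regions: 5 of the CSDS ketamine mice, 2 CSDS saline, 1 CTRL saline and 0 CTRL ketamine. In the mPFC the lower level ended at 1.04 CPM and the upper one began at 8.65 CPM, and in the vHipp they ended and began at 1.52 and 6.99 CPM. For Irf7 in the mPFC, the 8 mice held ranks from 1 to 38 of 39, and for B2m in the vHipp ranks from 1 to 39 of 40, while for Bst2 in the vHipp they began at rank 11. Over the 9 genes and both regions, between 3 and 6 of the 8 lay above the middle of the ranking. Mouse 12, with H2-T22 at 9.09 CPM in the mPFC, had Irf7 at 0.583 CPM, the second lowest of 39, and mouse 3, with H2-T22 at 10.2 CPM, had 2.86 CPM, the highest.

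**Figure D3:**
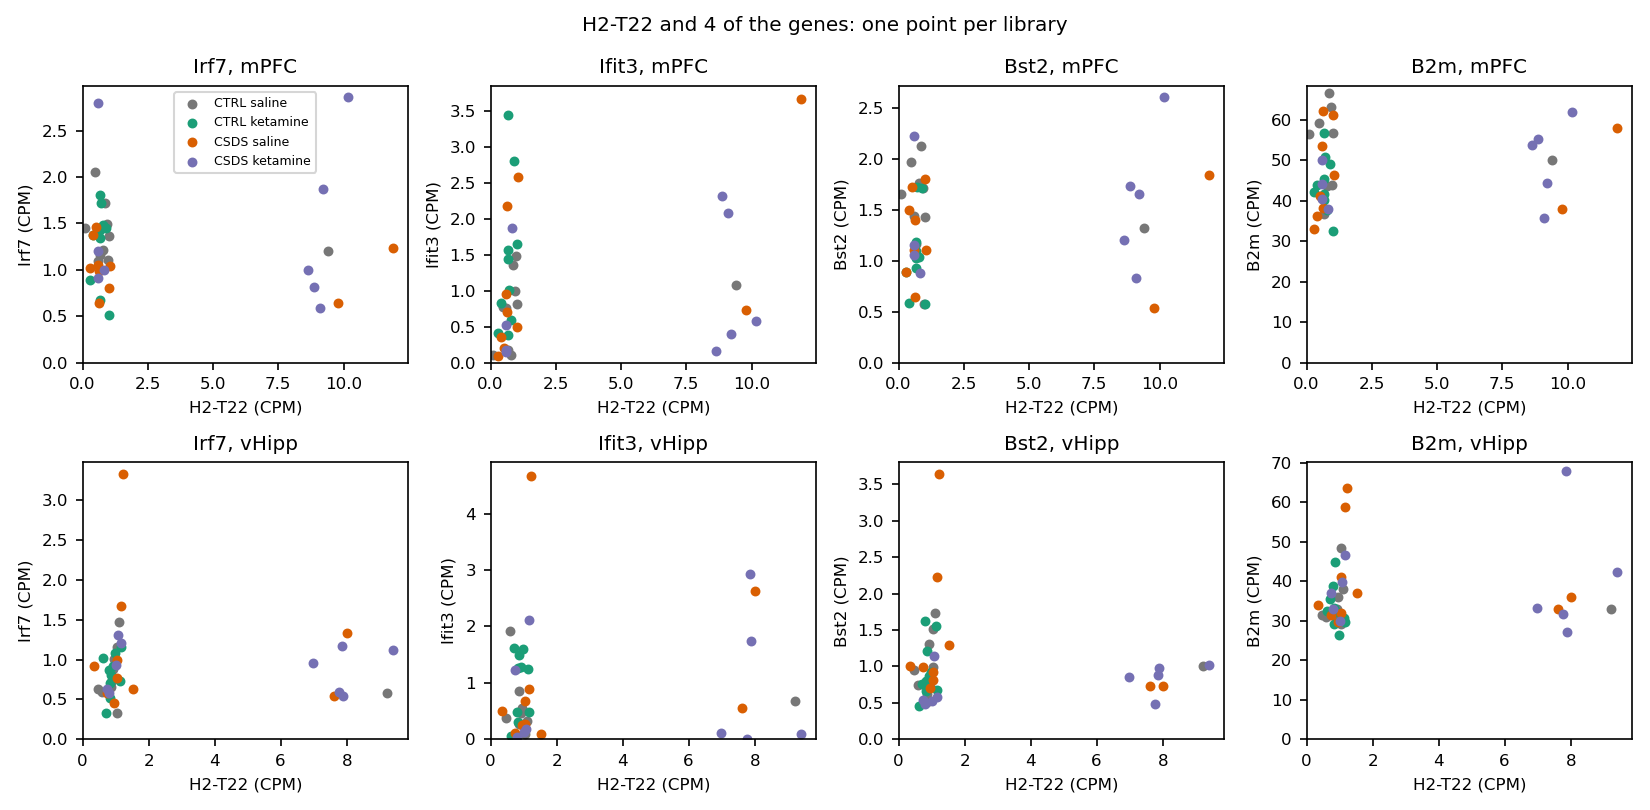
CPM of Irf7, Ifit3, Bst2 and B2m (y axes) against CPM of H2-T22 (x axes) in both regions, 1 point per library and groups by colour. The 8 libraries at the upper H2-T22 level held ranks from 1 to 38 of 39 for Irf7 in the mPFC, and from 11 to 39 of 40 for Bst2 in the vHipp.

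H2-K1 and H2-D1 are the classical class I heavy chains, which pair with B2m. Across mice the r of H2-K1 with B2m was 0.66 in the mPFC (rho 0.61, n = 39) and 0.72 in the vHipp (rho 0.61, n = 40), and 0.62 and 0.66 without the 2 mice farthest from the median. In the vHipp, H2-K1 had an r of 0.62 with Isg15 (rho 0.51), 0.61 with Irf7 (rho 0.69), 0.57 with Usp18 (rho 0.60), 0.53 with Ifit1 (rho 0.51), 0.48 with Rtp4 (rho 0.50), 0.39 with Bst2 (rho 0.34), 0.11 with Ifi27 (rho 0.030) and 0.077 with Ifit3 (rho 0.035). In the mPFC it was 0.58 with Bst2 (rho 0.49), 0.57 with Usp18 (rho 0.44), 0.43 with Ifit1 (rho 0.43), 0.41 with Irf7 (rho 0.31), 0.25 with Rtp4 (rho 0.24), 0.22 with Isg15 (rho 0.13, and r -0.039 without the 2 farthest mice), 0.096 with Ifi27 (rho 0.041) and -0.18 with Ifit3 (rho -0.25). For H2-D1, r with B2m was 0.64 in the mPFC (rho 0.60) and 0.50 in the vHipp (rho 0.39). With the other 8 genes it ran in the mPFC from -0.20 for Ifit3 (rho -0.30) to 0.65 for Bst2 (rho 0.57), and in the vHipp from 0.055 for Ifit3 (rho 0.027) to 0.56 for Ifit1 (rho 0.52). Within the lower H2-T22 level, r of H2-T22 with the 9 genes lay between 0.034 and 0.38 in the vHipp (n = 32). In the mPFC (n = 31), it was 0.58 with Ifit3 (rho 0.59), -0.64 with Rtp4 (rho -0.64) and between -0.17 and 0.19 with the other 7. These values are descriptions, with no test. The LFC of stress with ketamine for H2-K1 was 0.14 ± 0.20 in the mPFC and 0.18 ± 0.18 in the vHipp, and for H2-D1 -0.090 ± 0.15 and -0.19 ± 0.13. Beside these, it was 2.97 ± 0.72 and 2.29 ± 0.57 for H2-T22, 1.49 ± 0.40 and 0.80 ± 0.32 for H2-T23, and 0.094 ± 0.12 and 0.22 ± 0.14 for B2m, and -0.20 ± 0.28 and 0.10 ± 0.33 for Isg15. In the mPFC, H2-T23 had separate levels in the same 8 mice as H2-T22, the lower one up to 2.65 CPM and the upper one from 6.59 CPM, so that its LFC there compared 5 of 9 CSDS ketamine mice at the upper level with 0 of 10 CTRL ketamine mice. None of these LFC passed adjustment by edgeR.

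**Figure D4:**
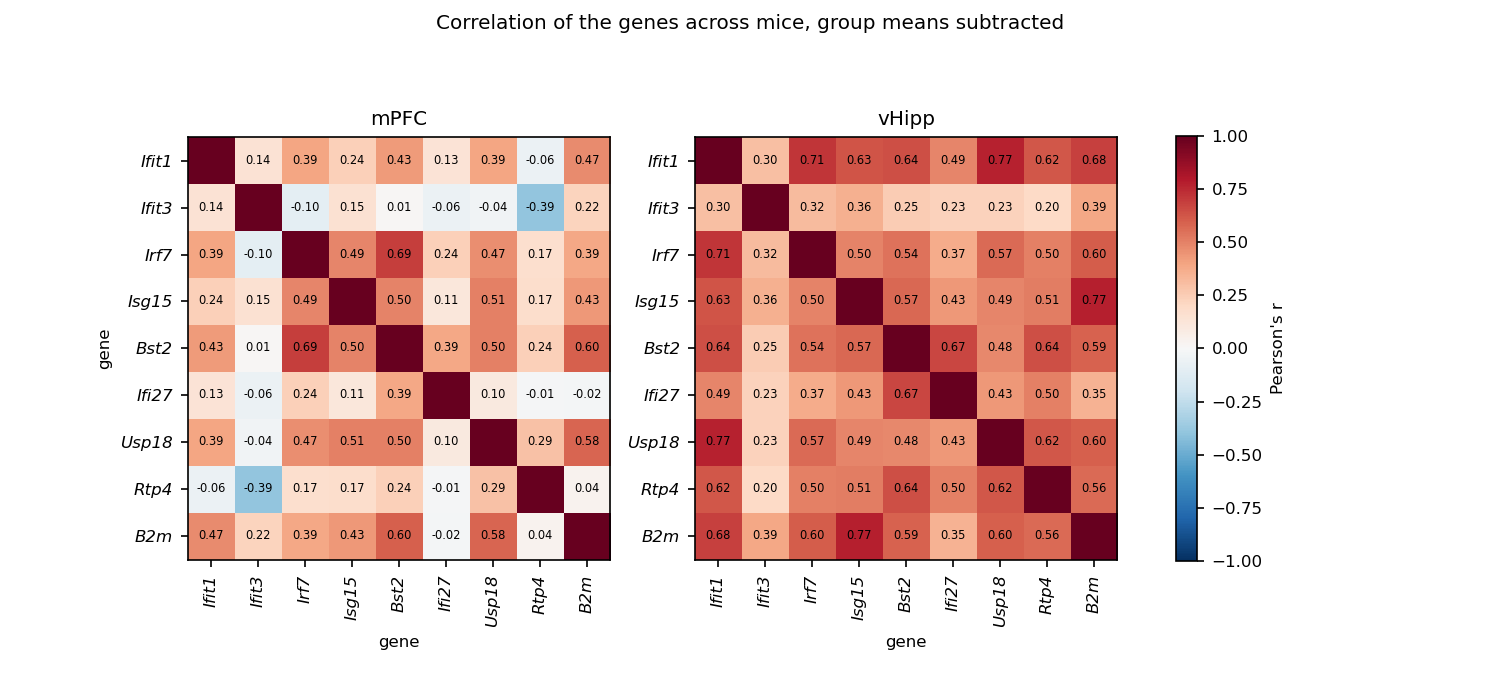
Pearson's r between each pair of the 9 genes across mice (colour scale and numbers, log2(CPM + 0.1) with group means subtracted), for 39 mPFC and 40 vHipp libraries. The vHipp values are all above 0, and the row of Ifit3 is the palest of the vHipp.

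From mouse to mouse within groups, most pairs of the 9 genes had a positive r. Over the 36 pairs, the median r was 0.51 in the vHipp, with 36 above 0 and a range from 0.20 to 0.77, and 0.24 in the mPFC, with 29 above 0 and a range from -0.39 (Ifit3 with Rtp4) to 0.69 (Irf7 with Bst2). Without mouse 4 the vHipp median was 0.38, still with 36 above 0. The difference between regions was not tested. The highest vHipp values, 0.77, were those of Isg15 with B2m and of Ifit1 with Usp18.

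The genes most like each of them, by the lower of the r in both regions among 15171 genes of at least 1 CPM in each, were in part other interferon targets. Irf7 was nearest to Lgals3bp (0.64), Oasl2 (0.59) and Gbp3 (0.55), and Bst2 to Lgals3bp (0.67), Oasl2 (0.65) and Lgals9 (0.65). Usp18 was nearest to Gbp3 (0.64), B2m (0.58) and Oasl2 (0.58), and Ifit1 to Parp14 (0.59), Trim30a (0.59) and Cpq (0.58). Oasl2 and Lgals3bp thus recurred, and both are on the effector list. For other members the nearest were of other kinds, among them Gm10561 (0.62) and Rftn2 (0.61) for Isg15 and Gm49329 (0.46) and Itga9 (0.44) for Rtp4. For the abundant genes they were Elovl5, F3 and Dazap2 for B2m (each 0.79 to 0.80) and Degs1, Ywhaq and Tmsb4x for Ifi27 (0.57, 0.52 and 0.51). Ifit3 was nearest to its neighbour Ifit1bl1 (0.77), far above the next, Gng12 (0.48).

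Between the mPFC and the vHipp of the same mouse, Ifit3 was the exception. Its r over 39 mice was 0.85 (rho 0.84), and 0.83 without the 2 mice farthest from the median, a value that 0.896% of the 15171 genes reached or passed, where the median gene had 0.30 and 35.6% were called by a permutation test with Benjamini-Hochberg adjustment. Its vHipp mean was under 1 CPM, so no p was computed. For the genes with a mean of at least 1 CPM, r was 0.21 for B2m (rho 0.16, permutation test p = 0.244, adjusted p = 0.372), 0.14 for Ifi27 (rho 0.25, adjusted permutation p = 0.572), 0.098 for Bst2 (rho 0.043, adjusted permutation p = 0.693) and 0.043 for Rtp4 (rho 0.0069, adjusted permutation p = 0.866). Without the 2 mice farthest from the median, these 4 values were 0.33, 0.15, 0.00028 and -0.088. The other 4 had an r from 0.11 (Isg15) to 0.26 (Ifit1). None of the 4 tests passed, which does not show that the regions vary independently.

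**Figure D5:**
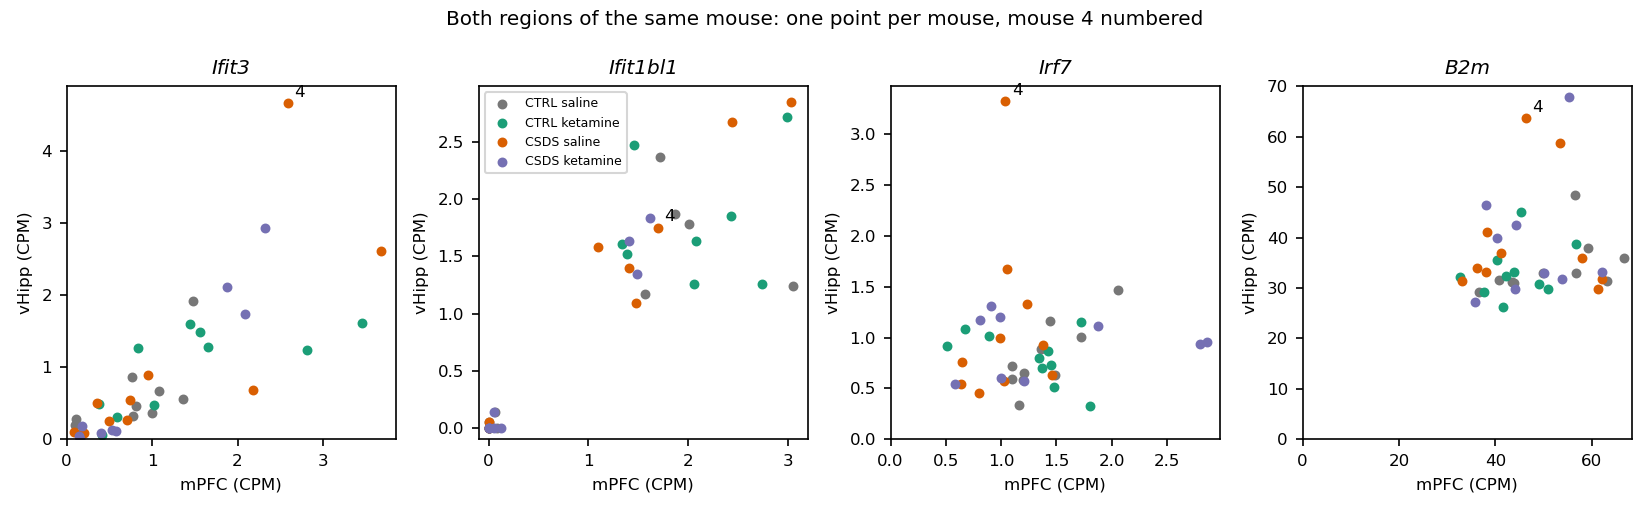
CPM in the vHipp (y axes) against CPM in the mPFC (x axes) of the same mouse for Ifit3, Ifit1bl1, Irf7 and B2m, 1 point per mouse, groups by colour and mouse 4 numbered. Ifit1bl1 falls into the same 2 sets of mice in both regions, Ifit3 follows in part, and Irf7 and B2m show little relation.

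Ifit3 lies in a cluster of related genes on chromosome 19 of GRCm38, in the order Ifit2, Ifit3, Ifit1bl1, Ifit3b, Ifit1bl2 and Ifit1, over 99.3 kb. Ifit1bl1, on the minus strand from 34592891 to 34601956, was at or below 0.127 CPM (at most 2 counts) in 17 mPFC libraries and at or above 1.09 CPM in the other 22. In the vHipp the same 17 mice were at or below 0.140 CPM (at most 3 counts), and the other 23 at or above 1.09 CPM. The lower level held 5 of 10 CTRL saline mice, 2 of 10 CTRL ketamine, 4 of 10 CSDS saline and 6 of 10 CSDS ketamine, so that it was found in every group. Ifit2, just upstream of Ifit3 and looked at after its values were seen, was lowest in both regions in the same 4 mice (2, 7, 25 and 33), at most 11.7 CPM in the mPFC against at least 20.4 in the others, and at most 5.75 against at least 14.3 CPM in the vHipp.

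Between regions, the r of Ifit3 was 0.49 (rho 0.53, n = 17) within the lower Ifit1bl1 level and 0.70 (rho 0.66, n = 22) within the upper one. Of the 10 mice lowest for Ifit3, 6 were shared between regions. Ifit1, at the other end of the cluster, had an r between regions of 0.26, and Ifit3b one of 0.068, while it was 0.96 for Ifit2 (rho 0.91), 0.97 for Ifit1bl1 (rho 0.96) and 0.69 for Ifit1bl2 (rho 0.71). The genes of this cluster resemble each other in sequence, the handling of shared reads is not given in the sources used here, and the split of reads between Ifit3, Ifit3b and Ifit1bl1 is therefore uncertain. The genotype of these outbred mice at the cluster was not measured.

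Levels differed between the regions for 5 of the 9 genes, where 48.9% of 31534 genes were called, a share close to that of the set. By edgeR's quasi-likelihood test over all 79 libraries, Ifi27 was lower in the mPFC (LFC mPFC against vHipp -0.88 ± 0.048, adjusted p = 2.25e-28), with 9.56 to 17.7 CPM in the mPFC and 15.7 to 38.4 CPM in the vHipp. B2m was higher in the mPFC (0.33 ± 0.066, adjusted p = 1.19e-05), as were Rtp4 (0.39 ± 0.11, adjusted p = 0.00165), Irf7 (0.45 ± 0.13, adjusted p = 0.00307) and Bst2 (0.38 ± 0.13, adjusted p = 0.0116). All of these overlapped between regions. Isg15 (0.27 ± 0.16), Ifit1 (0.24 ± 0.16), Ifit3 (0.29 ± 0.30) and Usp18 (-0.057 ± 0.21) did not pass. With the mouse as a replicate block, Ifit3 passed too (0.42 ± 0.14, edgeR adjusted p = 0.0103). Without the vHipp of mouse 4, Ifit1 (0.41 ± 0.14, edgeR adjusted p = 0.0102) and Isg15 (0.38 ± 0.14, edgeR adjusted p = 0.0229) passed, and without that of mouse 11 Isg15 did (0.35 ± 0.15, edgeR adjusted p = 0.0394).

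On the wider list, 44 of 69 genes differed between regions by the same test, 27 higher and 17 lower in the mPFC, where 24.5% and 24.4% of all genes did. The lowest p values were those of Herc6, the ligase that attaches Isg15 in mice, higher in the mPFC by an LFC of 3.18 ± 0.056, the interferon-gamma receptor chain Ifngr2 (-0.78 ± 0.035), Eif2ak2 (-0.97 ± 0.054), the kinase Jak2 (0.42 ± 0.031) and the RNA sensor Ifih1 (0.96 ± 0.078).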

How the data were processed

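The authors prepared stranded mRNA libraries from tissue punches with an RNA integrity number of at least 8, sequenced them in pairs, and deposited raw counts per gene, whole numbers without normalization. Per the labels, reads were converted with bcl2fastq 2.20.0.422 and the build was GRCm38. The aligner and counter are not given in the sources used here. Of 55471 identifiers, 55144 matched a symbol in the GRCm38 annotation.

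Genes with more than 10 counts in total, found in more than 3 libraries of a region, were tested with edgeR 4.0.16 (R 4.3.3, TMM, quasi-likelihood, two-sided, Benjamini-Hochberg over all genes, threshold 0.05), with all groups of a region in one fit. The SE is the LFC divided by the root of its F value. The study's own model had the housing enclosure as a covariate, which was not used here. P-values measure the spread between mice, 1 library per mouse and region. Stress was given to whole housing groups, which the reported fits did not take into account, so those of stress may be too low. The steps were tested on simulated data. Same-numbered libraries of both regions come from the same mouse, so the fit with the mouse as a replicate block was the alternative to the reported fit, without a block, for comparisons of regions. Between-region correlations used log2(CPM + 0.1), group means subtracted, and 100000 permutations of the pairing within groups. Alternatives were DESeq2 1.42.0, limma-voom (limma 3.58.1) with runs of 4 mouse numbers as a random effect, such runs as a fixed block, RLE normalization, no filter, filterByExpr, only the groups compared, Spearman, and a pseudocount of 1.

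The genes and lists were chosen with earlier results of these data known. Named genes were the 9, 4 class I genes, up to 5 genes of the wider list per comparison with the smallest unadjusted p under 0.05, and the 3 most alike per gene; others are marked. Libraries left out (mPFC of mice 3 and 31, vHipp of mice 4, 24, 11, 9 and 32) were chosen after the data were seen. A check of the mPFC label against cortical markers is not reported here.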

Additional observations from a re-analysis of the deposited data

Results flagged for a closer look

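In 16 of 72 sets of one gene in one region and group, the highest library lay further from the next than Dixon's criterion allows at 95%. For normally distributed values, chance flags about 1 in 20 sets. The criterion was applied to CPM without a log, which may be skewed at low counts, so the chance rate here is not known. The 9 genes of a library are not independent. In the vHipp of CSDS saline mice, 6 of them were mouse 4: Ifit1 at 4.86 CPM (next 1.34), Irf7 at 3.33 (next 1.68), Isg15 at 2.02 (next 0.838), Bst2 at 3.64 (next 2.23), Usp18 at 3.19 (next 0.708) and Rtp4 at 3.28 (next 1.75). In the vHipp of CSDS ketamine mice, mouse 11 stood apart for B2m at 68.0 CPM (next 46.5), Isg15 at 1.76 (next 0.772) and Usp18 at 1.10 (next 0.694). In CTRL ketamine mice, mouse 32 stood apart for Ifit1 at 2.00 CPM (next 1.00), Usp18 at 0.863 (next 0.429) and Rtp4 at 1.73 (next 1.13). In CTRL saline mice, single genes stood apart in mouse 39 (B2m at 48.5 CPM, next 38.0), mouse 24 (Ifi27 at 30.4, next 23.8) and mouse 29 (Ifit3 at 1.92, next 0.859). The 1 set of the mPFC was Isg15 in CSDS ketamine mice, with mouse 3 at 1.53 CPM (next 0.681).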

How the results depend on the processing

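Depth limits the 7 genes near 1 CPM, and the sign of some estimates rests on a single library. Of 1323 LFC of the 9 genes under other settings, 1266 kept their sign and their side of the threshold, and 53 changed sign, 46 of these on leaving out a library. The other 4, in the difference between regions, passed the threshold where the reported fit did not. The cause was not tested. The count of all genes called stayed at 0 in each within-region comparison, apart from DESeq2, which called 14 genes for stress over both treatments in the vHipp, where it gave the 9 genes no adjusted p. The mouse as a replicate block turned the region LFC of Usp18 to 0.022 and brought Ifit3 past the threshold, and it changed no other call among the 9 genes. Runs as a fixed block gave 0.051 for Usp18 in the vHipp interaction. Limma-voom turned Rtp4 to 0.012 for stress with ketamine and Ifit3 to -0.26 for stress over both treatments in the mPFC. In the vHipp it turned Isg15 to -0.083 for stress with ketamine, and Ifit3 to -0.48 and Bst2 to -0.029 for stress over both treatments. Leaving out single libraries changed the sign of these LFC, given with their lowest and highest values. For stress with ketamine in the mPFC, Irf7 ranged from -0.016 to 0.082 and Rtp4 from -0.065 to 0.016. For ketamine in CTRL mice in the mPFC, Isg15 ranged from -0.067 to 0.0014. For ketamine in CSDS mice in the mPFC, Ifit1 ranged from -0.15 to 0.068, Isg15 from -0.26 to 0.034, Usp18 from -0.12 to 0.064 and B2m from -0.055 to 0.0070. For the interaction in the mPFC, Isg15 ranged from -0.19 to 0.032. For ketamine over both stress groups in the mPFC, Isg15 ranged from -0.16 to 0.017 and Rtp4 from -0.011 to 0.0068. For stress with saline in the vHipp, Ifit1 ranged from -0.18 to 0.68 and Usp18 from -0.23 to 0.86. For stress with ketamine in the vHipp, Ifit1 ranged from -0.20 to 0.13 and Isg15 from -0.21 to 0.17. For ketamine in CTRL mice in the vHipp, Ifit1 ranged from -0.19 to 0.22, Bst2 from -0.19 to 0.027 and Usp18 from -0.40 to 0.015. For ketamine in CSDS mice in the vHipp, Ifit1 ranged from -0.67 to 0.12, Ifit3 from -0.83 to 0.28, Irf7 from -0.37 to 0.041, Isg15 from -0.53 to 0.23, Ifi27 from -0.032 to 0.064, Usp18 from -0.63 to 0.45, Rtp4 from -0.27 to 0.011 and B2m from -0.16 to 0.073. For the interaction in the vHipp, Ifit1 ranged from -0.78 to 0.086, Irf7 from -0.50 to 0.0064, Ifi27 from -0.014 to 0.13, Usp18 from -0.46 to 0.63, Rtp4 from -0.25 to 0.15 and B2m from -0.11 to 0.12. For stress over both treatments in the vHipp, Ifit1 ranged from -0.13 to 0.32 and Bst2 from -0.15 to 0.073. For ketamine over both stress groups in the vHipp, Ifit1 ranged from -0.37 to 0.077, Ifit3 from -0.024 to 0.53, Irf7 from -0.17 to 0.038, Isg15 from -0.045 to 0.34, Usp18 from -0.42 to 0.13 and B2m from -0.10 to 0.015. For the region difference, Usp18 ranged from -0.10 to 0.17. For the region difference of stress, Ifit3 ranged from -0.32 to 0.041.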
